A study of Homo sapiens and Mus musculus with 16 samples.

Results

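The CCR4-NOT complex was followed here at the RNA level, through the 10 genes CNOT1, CNOT2, CNOT3, CNOT6, CNOT6L, CNOT7, CNOT8, CNOT9, CNOT10 and CNOT11. They were taken by symbol from a human table of 22286 genes and, ignoring case, from a mouse table of 15881 genes, and all 10 were present in both and passed into every test. In P-body-seq, P-bodies are sorted after lysis as fluorescent particles that carry LSM14A, and their RNA is sequenced together with a cytoplasm fraction. Per the study's methods, that fraction was an aliquot from before the sort, so it still held P-bodies and is not the RNA outside them. It was also a resuspended pellet, made by centrifuging the lysate after nuclei were removed. RNA that stayed in the supernatant is thus not in it, and cytoplasm below means this pelleted fraction. There were 16 libraries, 2 of each fraction in each of 4 cell types. The HEK293T line stems from human embryonic kidney. Liver bud progenitors and day 20 neurons were both derived from UCLA4, a human embryonic stem cell line. The mouse cells (mESC) were embryonic stem cells of line KH2 grown in serum-LIF. Every line carried the LSM14a-GFP fusion, in the cytoplasm samples too, and in the stem cell derivatives it was expressed from the AAVS1 locus. HEK293T and mESC libraries were labelled total RNA, and liver bud progenitor and neuron libraries polyA RNA, so that library type and cell type cannot be told apart in any comparison of HEK293T with the other human cells.

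CCR4-NOT removes poly(A) tails from mRNA in the cytoplasm, a step that precedes decapping and silences translation, and its proteins are found in P-bodies with the decapping machinery. CNOT1 is the scaffold on which the rest assembles. CNOT2 and CNOT3 bind each other and form the NOT module at one end of CNOT1, CNOT10 and CNOT11 form a module at the other end, and CNOT9 docks partner proteins such as the microRNA effector TNRC6. Deadenylation is carried out by CNOT7 or CNOT8, a pair of closely related CAF1-type exonucleases, together with CNOT6 or CNOT6L, a pair of CCR4-type exonucleases. The values below are of the RNAs that encode these proteins and say nothing of where the proteins lie.

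RNAs for proteins that bind each other in the complex were not always distributed alike. CNOT2 and CNOT6 RNA was enriched in P-bodies of all 4 cell types under every setting tried, and CNOT8 and CNOT1 RNA was also enriched in all 4. Scaling by library size alone, however, turned the CNOT1 change to -0.030 in liver bud progenitors and to -0.087 in mESC. In mESC that change was called as depleted (adjusted p = 0.0368). The same scaling left the Cnot8 change in mESC at 0.036 (adjusted p = 0.823), all on the log2 scale. CNOT3, CNOT9 and CNOT11 RNA was enriched in none of the 4 cell types and depleted in 2 of them each. CNOT6L and CNOT10 were enriched in 2 cell types, and CNOT7 was enriched in 2 and depleted in 1. The 2 members of the NOT module serve as the example. Shown are the final 90 coding bases before the stop codon of each, 5′ to 3′ on the sense strand, from the Ensembl canonical transcripts of GENCODE v44 (hg38), because the coding sequences of this pair differed more in base composition than those of the other 3 pairs compared here. Capitals mark a G or C at the last position of a codon.
CNOT2: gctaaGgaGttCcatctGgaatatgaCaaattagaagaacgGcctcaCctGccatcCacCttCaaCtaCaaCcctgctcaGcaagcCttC
CNOT3: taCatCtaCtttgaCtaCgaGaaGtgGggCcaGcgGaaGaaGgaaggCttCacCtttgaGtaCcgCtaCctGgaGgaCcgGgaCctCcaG
In CNOT2 (plus strand, chr12:70243002-70354993) 17 of these 30 codons ended in G or C, and in CNOT3 (plus strand, chr19:54137749-54155681) 27 of 30 did.

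**Figure D1:**
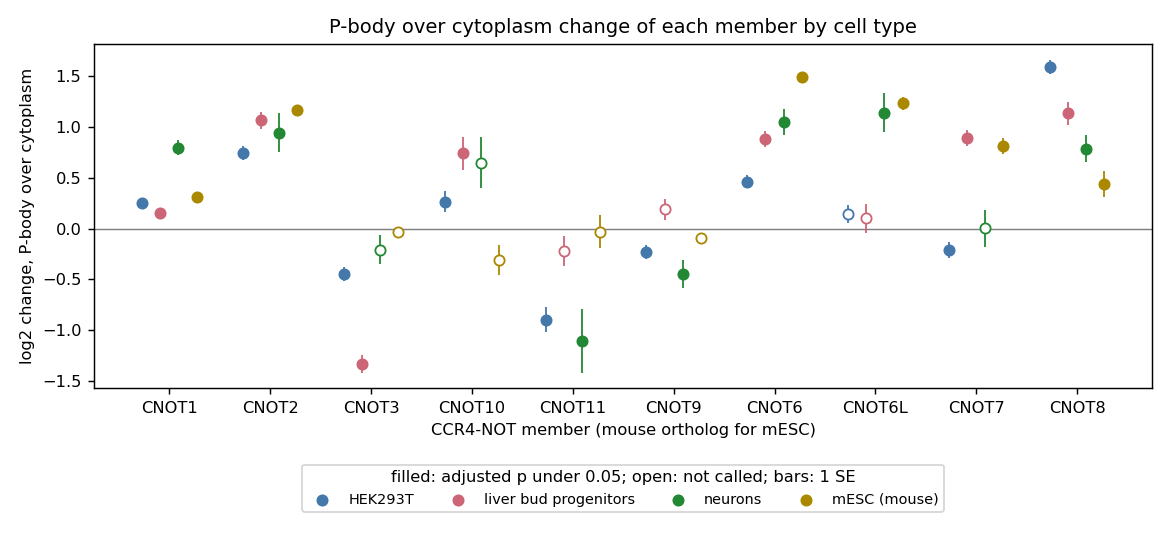
Log2 change of P-body over cytoplasm (vertical axis) for each member (horizontal axis) in HEK293T, liver bud progenitors, neurons and mESC. Bars are 1 SE, filled points had an adjusted p under 0.05, and the 4 points of CNOT2, CNOT6, CNOT8 and CNOT1 lie above 0 while CNOT3 and CNOT11 lie below it in each cell type.

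Values are counts relative to the library total (CPM), scaled with TMM factors among the 4 libraries of a cell type (normalized CPM), and a change is the log2 ratio of P-body to cytoplasm with its standard error (SE). Members were called at a Benjamini-Hochberg adjusted p under 0.05, over all genes, in the quasi-likelihood test of edgeR. Library totals ranged from 6368953 to 17972284 counts, and 3 counts, taken as the floor, stood for 0.167 to 0.471 CPM, well under the level of every member. Replicates of a group correlated at Spearman 0.982 to 0.992 except the neuron P-body pair, at 0.919. Ribosomal RNA rows took a smaller share of P-body than of cytoplasm libraries in each cell type, for example 4.54% against 16.2% in HEK293T, and their part in the changes is covered by a fit without them. Neuron markers summed to between 9660 and 12400 CPM in the neuron libraries, where the neural progenitor list summed to between 552 and 1020 CPM. Of that list PAX6 (413 to 432 against 77.6 to 89.9 CPM) and SOX2 (211 to 250 against 61.7 to 66.4 CPM) were higher in neuron P-bodies, NES (105 to 133 against 194 to 198 CPM) and HES5 (5.60 to 7.06 against 10.2 to 10.9 CPM) were lower, and VIM overlapped. The part of such cells in the member values was not tested. In liver bud progenitor libraries 7 of 8 liver markers exceeded 1 CPM and summed to between 198 and 447 CPM, with ALB at 0 to 0.195 CPM, while the pluripotent cell list summed to between 928 and 1140 CPM, against 17.9 to 46.7 CPM in HEK293T. Of that list LIN28A was highest, at 657 to 747 CPM. POU5F1 was at 82.5 to 95.4 CPM and NANOG at 32.7 to 51.8, while DPPA2 (0.628 to 2.93) and ESRRB (0 to 0.292) were low. The libraries labelled liver bud progenitors thus also held RNA of some pluripotency genes. Their neuron list summed to between 253 and 260 CPM. The part of cells with such RNA in the member values was not tested either. In mESC the pluripotent list summed to between 2230 and 2490 CPM.

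The scaffold RNA, CNOT1, had the highest normalized CPM of the members in each cell type, a scale that is not corrected for length. In HEK293T its level was 1429 and 1384 normalized CPM in the P-body libraries and 1202 and 1156 in the cytoplasm libraries. In neurons the P-body libraries held 1011 and 1044 and the cytoplasm libraries 587.2 and 596.6 normalized CPM. The fractions did not overlap in either cell type, and the gap was wider in neurons. CNOT1 rose by 0.25 ± 0.05 in HEK293T (adjusted p = 6.44e-06), 0.16 ± 0.05 in liver bud progenitors (adjusted p = 0.0034), 0.80 ± 0.07 in neurons (adjusted p = 3.38e-06) and 0.32 ± 0.03 in mESC (adjusted p = 1.4e-08), all on the log2 scale with SE. The liver bud call was lost with DESeq2 (0.14, adjusted p = 0.0648), with the filterByExpr filter on low counts (0.07, adjusted p = 0.257), when all 12 human libraries shared a fit (0.13, adjusted p = 0.0841), without P-body replicate 1 (0.14, adjusted p = 0.107) and without cytoplasm replicate 2 (0.07, adjusted p = 0.248). CNOT1 shares 1354 exonic bases with SETD6 on the opposite strand, which had 3102 counts over the 12 human libraries against 147705 for CNOT1. Whether counting used strand was not given in the sources used here.

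The RNAs of the NOT module differed in how P-bodies compared with the cytoplasm fraction. CNOT2 stood at 183.6 and 195.9 normalized CPM in HEK293T P-bodies and at 115.9 and 110.7 in the cytoplasm. In liver bud progenitors the P-body libraries held 125.8 and 126.1 and the cytoplasm libraries 60.47 and 59.7. Neuron P-body libraries gave 48.87 and 69.13, and neuron cytoplasm libraries 27.86 and 33.6. P-body libraries lay above the cytoplasm in each of these, and also in mESC, where Cnot2 was at 342.2 and 325 against 154.9 and 142.7 normalized CPM. The log2 change was 0.74 ± 0.07 in HEK293T (adjusted p = 8.59e-15), 1.07 ± 0.08 in liver bud progenitors (adjusted p = 6.72e-18), 0.94 ± 0.19 in neurons (adjusted p = 0.00232) and 1.17 ± 0.05 in mESC (adjusted p = 1.48e-15).

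CNOT3, the partner of CNOT2 in that module, went the other way in 2 cell types. Its level in liver bud progenitors was 49.9 and 60.89 normalized CPM in P-bodies and 128.1 and 150.4 in the cytoplasm. HEK293T P-body libraries held 120.7 and 115.5, and cytoplasm libraries 154 and 167.7. The fractions were apart in both cell types, with P-bodies lower. CNOT3 fell by 1.33 ± 0.09 on the log2 scale in liver bud progenitors (adjusted p = 4.17e-21) and by 0.45 ± 0.07 in HEK293T (adjusted p = 1.04e-07), the latter call being lost when all 12 human libraries shared a fit (-0.32, adjusted p = 0.0607). In neurons the P-body replicates disagreed, at 196.3 and 134.6 normalized CPM around cytoplasm values of 190.6 and 191.1, and the change of -0.21 ± 0.14 was not called (adjusted p = 0.309). Without neuron P-body replicate 1 it was -0.50 (adjusted p = 0.000474) and without replicate 2 it was 0.04 (adjusted p = 0.786), and with the replicate number as a block it was -0.23 (adjusted p = 0.0262). Cnot3 in mESC was at 239.9 and 240.5 against 250.4 and 240.9 normalized CPM and was not called (change -0.03 ± 0.05, adjusted p = 0.606). It was called as depleted with filterByExpr (-0.12, adjusted p = 0.034) and by library size alone (-0.43, adjusted p = 8.18e-09).

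Since CNOT2 and CNOT3 were counted in the same libraries, the ratio of their counts needs no scaling between libraries. It was 1.52 and 1.70 in HEK293T P-bodies and 0.753 and 0.660 in HEK293T cytoplasm. In liver bud progenitors it was 2.52 and 2.07 in P-bodies and 0.472 and 0.397 in the cytoplasm. The ratio was higher in both P-body libraries than in both cytoplasm libraries of every cell type, and the ratio of geometric means came to 2.28 for HEK293T, 5.28 for liver bud progenitors, 2.23 in the neurons and 2.29 in mESC. CNOT2 counts exceeded CNOT3 counts in P-bodies and fell short of them in the cytoplasm of all cell types but neurons, in which CNOT3 had more counts in both fractions.

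**Figure D2:**
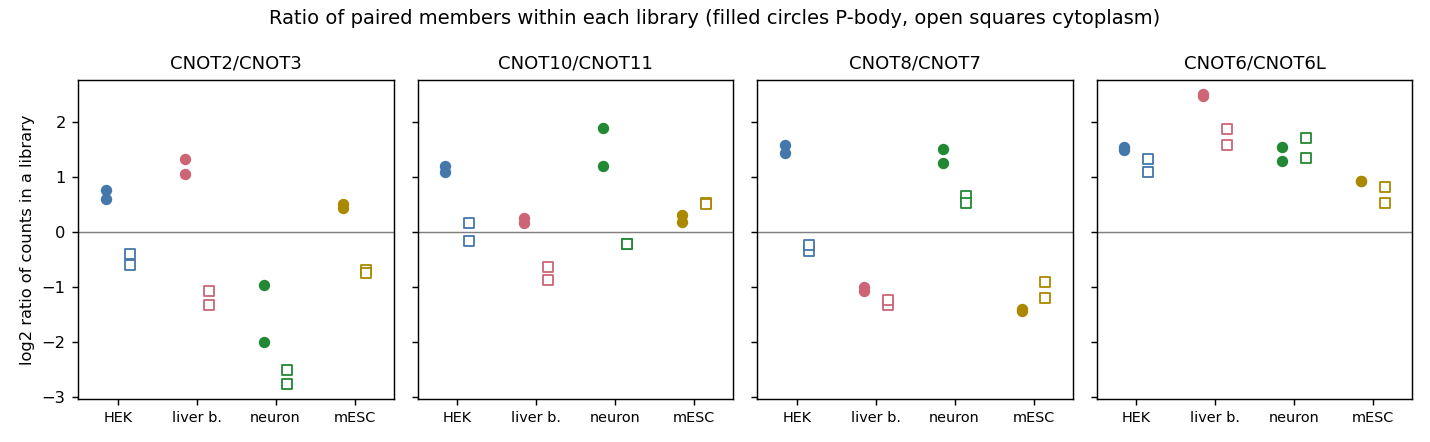
Log2 ratio of the counts of paired members (vertical axis) in each library, by cell type (horizontal axis), with filled circles for P-body and open squares for cytoplasm libraries. The CNOT2/CNOT3 ratio lies higher in P-bodies of all 4 cell types, CNOT10/CNOT11 does so in the 3 human ones and not in mESC, and CNOT8/CNOT7 is lower in P-bodies of mESC.

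The module of CNOT10 and CNOT11 showed a like difference in human cells. CNOT11 was at 21.8 and 22.4 normalized CPM in HEK293T P-bodies and at 45.8 and 36.43 in the cytoplasm. Its neuron values were low, at 8.054 and 5.934 in P-bodies and 14.64 and 15.4 in the cytoplasm, resting on 60 to 155 counts a library. P-bodies were lower in both cell types, with a log2 change of -0.90 ± 0.12 in HEK293T (adjusted p = 6.71e-09) and -1.10 ± 0.31 in neurons (adjusted p = 0.0178). The neuron call was lost with DESeq2 (-1.05, adjusted p = 0.0594) and without either cytoplasm library (-1.15, adjusted p = 0.142, without replicate 1 and -1.08, adjusted p = 0.176, without replicate 2). In liver bud progenitors the change was -0.22 ± 0.15 (adjusted p = 0.272) and in mESC -0.03 ± 0.16 (adjusted p = 0.897). By library size alone both were called as depleted (-0.41, adjusted p = 0.022, and -0.43, adjusted p = 0.0249).

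CNOT10 was at 26.35 and 23.3 normalized CPM in liver bud P-bodies and at 15.96 and 13.79 in the cytoplasm. HEK293T P-body libraries held 50.12 and 47.65 and cytoplasm libraries 40.65 and 40.6. P-bodies were higher in both, with a log2 change of 0.74 ± 0.16 in liver bud progenitors (adjusted p = 0.000118) and 0.27 ± 0.10 in HEK293T (adjusted p = 0.0276), the latter call being lost by library size alone (0.14, adjusted p = 0.321) and without P-body replicate 1 (0.23, adjusted p = 0.172), P-body replicate 2 (0.30, adjusted p = 0.0603) or cytoplasm replicate 2 (0.27, adjusted p = 0.0648). Neurons gave 0.65 ± 0.25, which was not called (adjusted p = 0.0727). The neuron change was called as enriched by library size alone (0.81, adjusted p = 0.0285) and with filterByExpr (0.75, adjusted p = 0.0323). The same held when all human libraries shared a fit (0.54, adjusted p = 0.0133). Without neuron P-body replicate 1 the change was 0.77. In mESC, Cnot10 stood at 18.59 and 19.2 normalized CPM in P-bodies and 26.25 and 20.51 in the cytoplasm. P-bodies were thus lower, by a change that was not called (-0.31 ± 0.15, adjusted p = 0.0892) and was -0.47 without cytoplasm replicate 2. It was called with filterByExpr (-0.39, adjusted p = 0.0236) and by library size alone (-0.71, adjusted p = 0.000143). The CNOT10/CNOT11 count ratio was 2.22 times as high in P-bodies as in the cytoplasm of HEK293T, 1.95 times in liver bud progenitors and 3.39 times in the neurons, and 0.826 times in mESC, with no overlap of fractions in any.

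CNOT9, the docking subunit, was lower in P-bodies than in the cytoplasm fraction of HEK293T and neurons. In HEK293T its P-body libraries held 121.1 and 109.3 and its cytoplasm libraries 131.2 and 138.5 normalized CPM. In neurons the P-body libraries held 64.1 and 80.2 and the cytoplasm libraries 101.8 and 94.49. P-bodies were lower in both cell types, by -0.23 ± 0.07 in HEK293T (adjusted p = 0.00599) and -0.44 ± 0.14 in neurons (adjusted p = 0.027) on the log2 scale. These calls were weak. HEK293T lost its call with DESeq2 (-0.14, adjusted p = 0.287), with RLE size factors (-0.14, adjusted p = 0.135), in the single fit of all human libraries (-0.10, adjusted p = 0.621) and without P-body replicate 2 (-0.15, adjusted p = 0.231) or cytoplasm replicate 2 (-0.18, adjusted p = 0.0626). Neurons lost theirs with DESeq2 (-0.39, adjusted p = 0.0891), RLE size factors (-0.39, adjusted p = 0.051), library size alone (-0.28, adjusted p = 0.169) and filterByExpr (-0.34, adjusted p = 0.0813), and without P-body replicate 1 (-0.29, adjusted p = 0.0692) or either cytoplasm library (-0.40, adjusted p = 0.179, and -0.51, adjusted p = 0.0513). In liver bud progenitors, where the cytoplasm replicates were at 51.98 and 74.5 normalized CPM, the change was 0.19 ± 0.10 (adjusted p = 0.142), and it passed without cytoplasm replicate 2 (0.44, adjusted p = 0.00054). Cnot9 in mESC changed by -0.09 ± 0.05 (adjusted p = 0.16). It was called as depleted with filterByExpr (-0.18, adjusted p = 0.00627) and by library size alone (-0.50, adjusted p = 7.64e-09). Cnot9 overlaps 134 exonic bases of Usp37, an opposite-strand gene with 14321 counts against 5772 for Cnot9.

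Among the exonucleases, CNOT8 in HEK293T showed the largest change of any member in the human cells. Its level in HEK293T was 257.3 and 235.6 normalized CPM in P-bodies and 82.99 and 80.18 in the cytoplasm. In liver bud progenitors it was 65.27 and 65.34 against 28.99 and 30.48, and in neurons 90.13 and 96.32 against 51.84 and 56.19. P-bodies were above the cytoplasm in every case. The log2 change was 1.59 ± 0.07 in HEK293T (adjusted p = 7.38e-29), 1.13 ± 0.11 in liver bud progenitors (adjusted p = 3.21e-14) and 0.79 ± 0.13 in neurons (adjusted p = 0.00046). The mouse Cnot8 changed by 0.44 ± 0.13 (adjusted p = 0.00764) on 181 to 295 counts a library, and this call was lost with DESeq2 (0.43, adjusted p = 0.0664), by library size alone (0.036, adjusted p = 0.823) and without cytoplasm replicate 1 (0.29, adjusted p = 0.097). In human cells FAXDC2, on the opposite strand, shares 163 exonic bases with CNOT8 and had 1139 counts against 14341.

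CNOT7, which can take the place of CNOT8 in the complex, differed between cell types. Liver bud progenitor P-body libraries held 138.4 and 131.1 normalized CPM and cytoplasm libraries 73.35 and 72.09. HEK293T P-body libraries held 85.71 and 87.57 and cytoplasm libraries 105.6 and 94.56. Neuron P-body libraries were at 37.73 and 34.02 and cytoplasm libraries at 32.77 and 38.79. P-bodies were thus higher in the first, lower in the second and overlapping with the cytoplasm in the third. The log2 change was 0.89 ± 0.08 in liver bud progenitors (adjusted p = 3.27e-15), -0.21 ± 0.08 in HEK293T (adjusted p = 0.0234), 0.00 ± 0.18 in neurons (adjusted p = 0.989) and 0.81 ± 0.08 in mESC (adjusted p = 4.13e-09). The HEK293T call was lost without ribosomal RNA rows (-0.19, adjusted p = 0.0545), with DESeq2 (-0.12, adjusted p = 0.493), RLE size factors (-0.12, adjusted p = 0.266), filterByExpr (-0.15, adjusted p = 0.0864) and the single fit (-0.08, adjusted p = 0.631), and without P-body replicate 1 (-0.19, adjusted p = 0.153), P-body replicate 2 (-0.22, adjusted p = 0.0917) or cytoplasm replicate 1 (-0.09, adjusted p = 0.505). The CNOT8/CNOT7 count ratio was 3.0 and 2.69 in HEK293T P-bodies and 0.786 and 0.848 in the cytoplasm. CNOT8 thus had more counts than CNOT7 in the former and fewer in the latter, on counts not corrected for length. Whether reads of this related pair were divided between them in counting was not tested.

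Of the CCR4-type pair, CNOT6 was enriched in each cell type and CNOT6L in neurons and mESC. CNOT6 was at 193 and 194.6 normalized CPM in HEK293T P-bodies against 139.9 and 141.5 in the cytoplasm, and in neurons at 130.3 and 154.4 against 66.1 and 71.49. In mESC, Cnot6 reached 622.6 and 619.6 in P-bodies and 219.3 and 222.3 in the cytoplasm. P-bodies were higher throughout, by 0.46 ± 0.06 in HEK293T (adjusted p = 9.3e-09), 0.88 ± 0.08 in liver bud progenitors (adjusted p = 2.86e-15), 1.05 ± 0.12 in neurons (adjusted p = 2.9e-05) and 1.49 ± 0.04 in mESC (adjusted p = 2.47e-19) on the log2 scale.

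CNOT6L was at 53.62 and 52.71 normalized CPM in neuron P-bodies and 20.11 and 28.1 in the cytoplasm. In liver bud progenitors it was at 28.49 and 25.89 in P-bodies and 23.28 and 27.19 in the cytoplasm. The fractions were apart in neurons and overlapped in liver bud progenitors. The log2 change was 1.14 ± 0.19 in neurons (adjusted p = 0.000539) and 1.23 ± 0.06 in mESC (adjusted p = 1.4e-14), against 0.14 ± 0.09 in HEK293T (adjusted p = 0.22) and 0.10 ± 0.14 in liver bud progenitors (adjusted p = 0.631). The HEK293T value passed with RLE size factors (0.23, adjusted p = 0.0389) and was 0.29 without cytoplasm replicate 1.

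**Figure D3:**
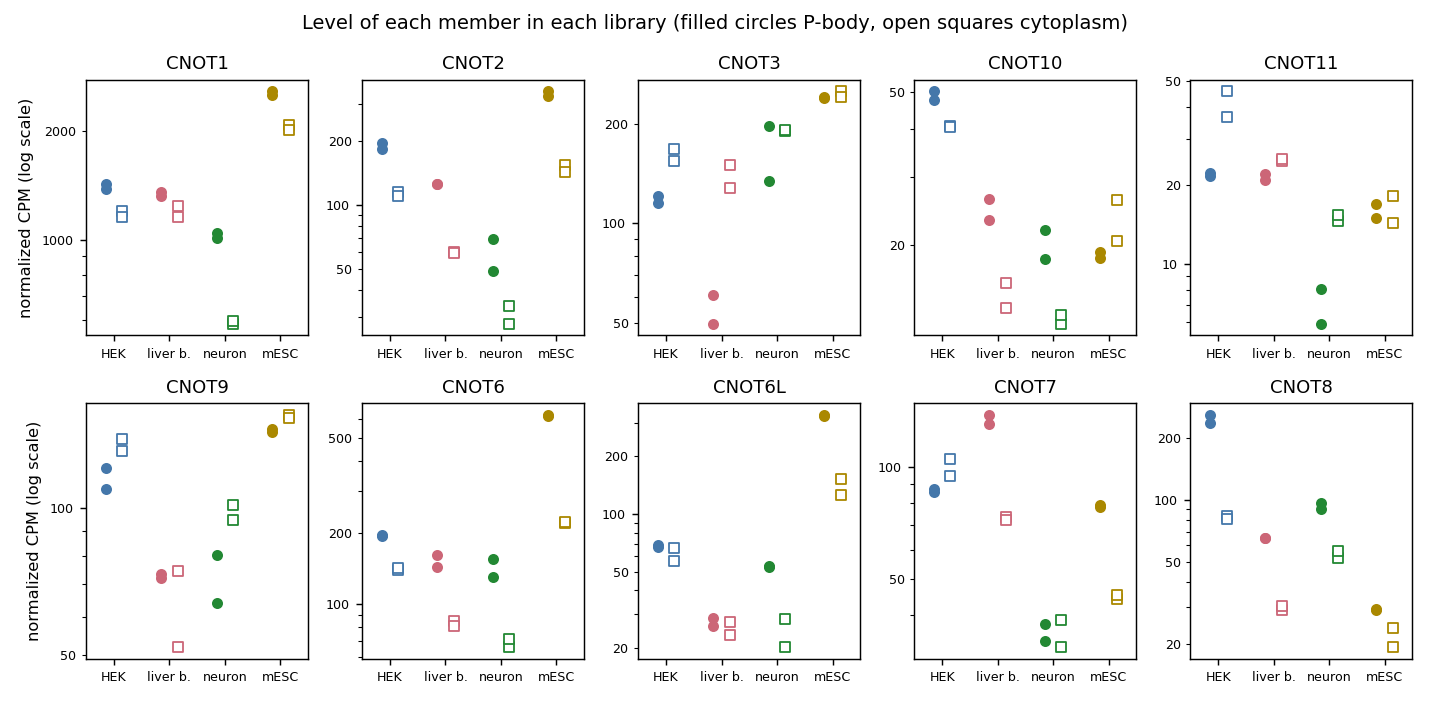
Normalized CPM (vertical axis, log scale, a separate range for each panel) of each member in each of the 16 libraries, by cell type (horizontal axis), with filled circles for P-body and open squares for cytoplasm libraries. CNOT2, CNOT6 and CNOT8 P-body libraries lie above the cytoplasm libraries in each cell type, while the 2 neuron P-body libraries of CNOT3, at 196.3 and 134.6, lie on either side of the cytoplasm. Each cell type was scaled on its own, so levels are to be compared within it.

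Counted over the members, 5 of 10 were enriched and 4 depleted in HEK293T, where 19.3% of all genes tested were enriched and 22.8% depleted. For liver bud progenitors 6 of 10 were enriched and 1 depleted, against 21.4% and 17.1% of all genes. Neurons had 5 enriched and 2 depleted, against 14.6% and 14.1%, and mESC had 6 enriched and 0 depleted, against 25.8% and 20.6%. At an unadjusted p under 0.05 in edgeR 1 mouse member, Cnot10, was lower in P-bodies, and DESeq2 also called 0. With filterByExpr 3 mouse members were depleted, beside 3424 of 12414 genes. Enriched members therefore made a larger share than enriched genes overall in each cell type. No such reading is given for the depleted members, since the HEK293T count of 4 was 2 with DESeq2, with RLE size factors or without P-body replicate 2, and 1 in the single fit of all human libraries. All genes include many with few counts, which are called less often, and the members were not matched to others of their level. The median log2 change of the members came to 0.20 in HEK293T cells, 0.47 in liver bud progenitors, 0.72 in the neurons and 0.38 in mESC, beside medians of -0.01, -0.09, 0.19 and -0.11 over all genes. With scaling by library size alone the median of all genes shifted by -0.13, -0.19, 0.16 and -0.40 in that order, and the mESC counts became 4 enriched and 5 depleted members, beside 2591 enriched and 6609 depleted of all 15881 genes.

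The next question was whether enrichment of a member differed between the human cell types. It was tested as the difference of the log2 changes over the 8 libraries of a pair of cell types. More or less enriched here means a higher or lower log2 change, whatever the sign of that change. Between neurons and liver bud progenitors, both of polyA RNA, 3 of 10 members were more enriched in neurons, where 9.21% of all genes were, and 2 were less enriched, where 8.50% were. CNOT3 differed by 1.12 ± 0.22 (adjusted p = 0.00188), CNOT6L by 1.03 ± 0.25 (adjusted p = 0.00857) and CNOT1 by 0.63 ± 0.08 (adjusted p = 8.12e-05). For CNOT1 and CNOT6L this was stronger enrichment in neurons, and for CNOT3 it was depletion in liver bud progenitors without a called change in neurons. CNOT7 was less enriched in neurons by -0.89 ± 0.17 (adjusted p = 0.00163), and CNOT9 by -0.65 ± 0.21 (adjusted p = 0.0446). The CNOT9 call was lost with DESeq2 (-0.62, adjusted p = 0.0792), RLE size factors (-0.61, adjusted p = 0.0528), library size alone (-0.29, adjusted p = 0.378) and filterByExpr (-0.50, adjusted p = 0.12), and without liver bud P-body replicate 1 (-0.65), P-body replicate 2 (-0.65), liver bud cytoplasm replicate 1 (-0.42) or neuron cytoplasm replicate 1 (-0.66) or 2 (-0.80), with adjusted p from 0.0517 to 0.219. The CNOT6L call was lost without liver bud P-body replicate 2 (0.97, adjusted p = 0.0562), liver bud cytoplasm replicate 2 (0.92, adjusted p = 0.0655) or neuron cytoplasm replicate 1 (0.74, adjusted p = 0.0708). CNOT2, with a difference of -0.13 ± 0.21 (95% interval -0.54 to 0.27), CNOT6, with 0.16 ± 0.15 (-0.13 to 0.45), and CNOT10, with -0.10 ± 0.29 (-0.67 to 0.47), showed no called difference. CNOT6 was called by library size alone (0.52, adjusted p = 0.0352), and the CNOT2 difference was -0.52 without neuron P-body replicate 2. CNOT11 (-0.89 ± 0.31, adjusted p = 0.0607) and CNOT8 (-0.35 ± 0.16, adjusted p = 0.158) were not called either. Both were called as less enriched in neurons in the single fit (-0.98, adjusted p = 0.0134, and -0.43, adjusted p = 0.0304).

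Between neurons and HEK293T, 3 of 10 members were more enriched in neurons (6.35% of all genes) and 1 less (6.19%). CNOT6L differed by 0.86 ± 0.21 (adjusted p = 0.0133), CNOT1 by 0.40 ± 0.08 (adjusted p = 0.00425) and CNOT6 by 0.45 ± 0.14 (adjusted p = 0.047), and CNOT8 by -0.95 ± 0.14 (adjusted p = 0.00022). The CNOT6 call was lost with DESeq2 (0.38, adjusted p = 0.122), RLE size factors (0.38, adjusted p = 0.0961), no ribosomal RNA rows (0.30, adjusted p = 0.181) and the single fit (0.35, adjusted p = 0.0841), and on leaving out any library but neuron P-body replicate 1, with values from 0.31 to 0.50 and adjusted p from 0.0735 to 0.241. CNOT6L lost its call without HEK293T P-body replicate 1 (0.81, adjusted p = 0.0931), HEK293T P-body replicate 2 (0.85, adjusted p = 0.0822), HEK293T cytoplasm replicate 1 (0.73, adjusted p = 0.108) or neuron cytoplasm replicate 1 (0.64, adjusted p = 0.0823). Between HEK293T and liver bud progenitors, 3 of 10 had a higher change in HEK293T (15.0% of all genes) and 1 a lower change (12.5%). For CNOT3 this was weaker depletion in HEK293T (-0.45) than in liver bud progenitors (-1.33), not enrichment. CNOT3 differed by 1.11 ± 0.12 (adjusted p = 1.88e-10), CNOT8 by 0.69 ± 0.12 (adjusted p = 1.4e-05), CNOT1 by 0.33 ± 0.07 (adjusted p = 0.000105, 0.16, adjusted p = 0.074, by library size alone, and 0.14, adjusted p = 0.108, with filterByExpr) and CNOT7 by -0.87 ± 0.12 (adjusted p = 4.22e-08). These pairs share libraries with each other, and both that involve HEK293T carry the difference of library type.

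**Figure D4:**
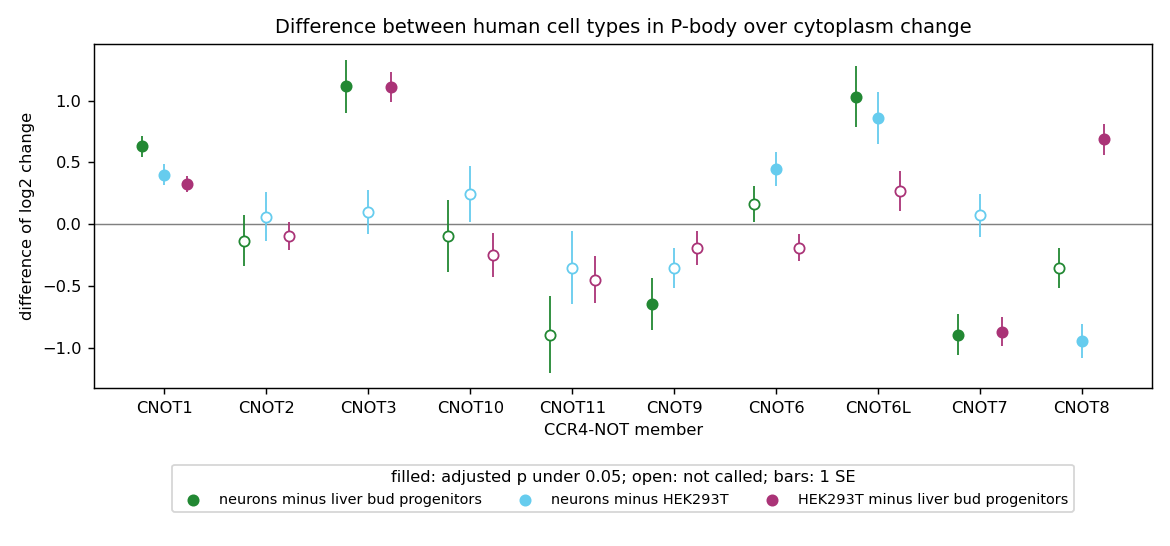
Difference between 2 human cell types in the log2 change of P-body over cytoplasm (vertical axis) for each member (horizontal axis), with bars of 1 SE and filled points for an adjusted p under 0.05. CNOT3 is the farthest above 0 in both comparisons with liver bud progenitors (1.12 and 1.11), and CNOT7 lies near -0.9 in the same comparisons.

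The level in the cytoplasm fraction also differed between neurons and liver bud progenitors. On a scale common to these 4 cytoplasm libraries, 3 of 10 members were higher in neurons, where 26.0% of all genes were, and 4 were lower, where 25.8% were. CNOT3 was at 205.7 and 206.2 normalized CPM in neurons and 119.4 and 140.6 in liver bud progenitors. CNOT8 was at 55.95 and 60.65 against 27.02 and 28.5, and CNOT9 at 109.9 and 102 against 48.44 and 69.66. Neuron libraries were above the others for these 3, by 0.66 ± 0.09 (adjusted p = 5.39e-10), 1.07 ± 0.13 (adjusted p = 6.67e-11) and 0.84 ± 0.11 (adjusted p = 6.85e-10) on the log2 scale. CNOT1 was lower in neurons, at 633.8 and 644 normalized CPM against 1160 and 1085, a log2 difference of -0.81 ± 0.07 (adjusted p = 2.83e-17). CNOT7 was at 35.37 and 41.87 against 68.36 and 67.41 (-0.81 ± 0.12, adjusted p = 2.02e-08), and CNOT2 at 30.07 and 36.26 against 56.35 and 55.82 (-0.76 ± 0.13, adjusted p = 5.81e-07). CNOT11 was lower by a smaller difference (-0.53 ± 0.17, adjusted p = 0.00768), lost with DESeq2 (-0.57, adjusted p = 0.0758), without liver bud cytoplasm replicate 1 (-0.54, adjusted p = 0.055) and without replicate 2 (-0.52, adjusted p = 0.0718). Fewer RNA molecules per cell and a different mix of cells cannot be told apart in such bulk samples.

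Levels of different members can be compared only per length. On a scale common to all 12 human libraries and per kilobase of canonical transcript, CNOT1 led the HEK293T cytoplasm at 136 ± 3.53 CPM per kb (SD, n = 2), followed by CNOT3 at 55.4 ± 3.43 and CNOT2 at 38.6 ± 1.20. CNOT6L was lowest at 6.79 ± 0.712. CNOT11, CNOT10 and CNOT7, at 15.9, 14.2 and 14.1 CPM per kb, had overlapping values there. In the neuron cytoplasm CNOT1 and CNOT3 were close, at 75.6 ± 0.179 and 72.7 ± 0.846 CPM per kb, and CNOT2 was at 11.6 ± 1.38. The order CNOT1, then CNOT3, then the others held in the cytoplasm of every human cell type on this scale. It also held in mESC (244 and 87.0 CPM per kb), scaled among the mouse libraries and by transcripts chosen under another rule. Per kilobase of coding sequence, which leaves out the long 3′ ends of CNOT6L, CNOT7, CNOT6 and CNOT9, CNOT9 ranked first in the neuron cytoplasm at 117.5 CPM per kb and CNOT7 second in that of liver bud progenitors at 81.8, so the order, its top included, depends on the length used, and these counts do not show which transcript ends were in use.

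Base composition was a property on which the members differed and which the choice of genes did not use. G and C made up 60.38% of the CNOT3 coding sequence and 54.25% of that of CNOT11, and 40.58% to 47.71% of the other 8. CNOT3 and CNOT11 thus had both the highest values and no enrichment in any of the cell types. CNOT9, the third member that was never enriched, came next at 47.71%. Over 17514 human genes matched by symbol the median coding GC was 52.64%, with quartiles of 45.57% and 59.77%. CNOT3 was thus above the upper quartile and CNOT11 near the median, while every member but these and CNOT9 lay under the lower quartile. Across the 10 members, the Spearman correlation of the log2 change with coding GC came to -0.50 in HEK293T cells, -0.60 in liver bud progenitors, -0.48 in the neurons and -0.68 in mESC. Other properties were compared too, in that order of cell types. GC at the third codon position gave -0.37, -0.48, -0.38 and -0.71, and GC of the whole transcript -0.51, -0.61, -0.66 and -0.87. Transcript length gave -0.079, -0.15, 0.52 and 0.091, and 3′ untranslated length 0.14, 0.31, 0.45 and 0.42. The 10 genes are not independent replicates, and they share libraries, so these values are a description only. CNOT7 had the lowest coding GC of the human members, 40.58%, and yet was not enriched in HEK293T or neurons. Between species, the coding GC of Cnot10 was 49.19% in mouse and 42.47% in human, and that of Cnot8 49.43% and 43.95%, the widest gaps of the 10. These 2 members had a change of -0.31 (not called) and 0.44 in mESC, beside 0.27 to 0.74 and 0.79 to 1.59 in the human cells, in tables that were normalized separately. Species, cell type and base composition differ together here and cannot be told apart, and a link with GC was not tested.

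**Figure D5:**
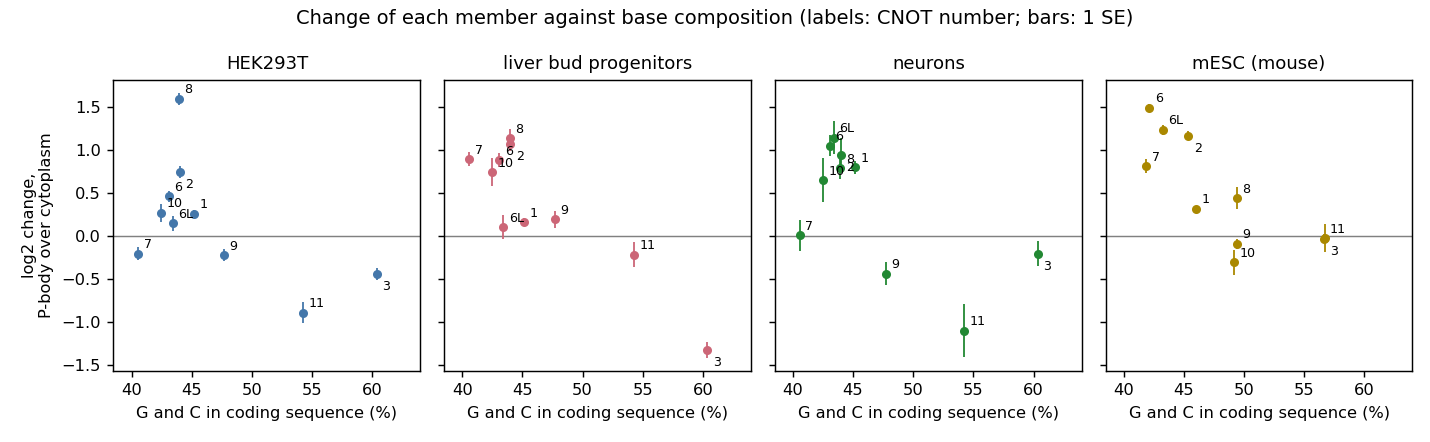
Log2 change of P-body over cytoplasm (vertical axis, bars of 1 SE) against G and C in the coding sequence in percent (horizontal axis) for the 10 members, marked by their CNOT number, in each cell type. CNOT3 and CNOT11 stand apart on the right and at or below 0 in each, and CNOT7 lies farthest left.

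RNAs of proteins that work with CCR4-NOT were examined as lists. The BTG and TOB adaptors, antiproliferative proteins that bind CNOT7 and CNOT8, were enriched for 5 of 6 genes in HEK293T, liver bud progenitors and neurons and for 3 of 5 tested in mESC, the rest being uncalled. TOB1 rose by 1.36 ± 0.06 in HEK293T (549.2 against 214.2 normalized CPM, adjusted p = 2.08e-29), 1.10 ± 0.06 in liver bud progenitors, 2.12 ± 0.11 in neurons (355.9 against 81.78, adjusted p = 2.41e-08) and 1.43 ± 0.05 in mESC. BTG3 rose by 1.09 ± 0.07 in HEK293T and 1.35 ± 0.12 in liver bud progenitors, and BTG1 by 1.76 ± 0.24 in neurons and 1.01 ± 0.11 in mESC. RNA-binding recruiters and partners were enriched for 13 and depleted for 1 of 19 in HEK293T, for 10 and 3 of 19 in liver bud progenitors, and for 13 and 1 of 18 in mESC, while in neurons 13 of 19 were enriched and the rest uncalled. TNRC6B, a microRNA effector, rose by 1.36 ± 0.05 in HEK293T and 1.58 ± 0.07 in neurons, and TNRC6A by 1.96 ± 0.08 in neurons and 1.18 ± 0.04 in mESC. RC3H2, a Roquin protein, rose by 1.37 ± 0.05 in HEK293T, 1.23 ± 0.05 in liver bud progenitors and 1.33 ± 0.04 in mESC. BICC1 rose in liver bud progenitors (1.15 ± 0.23, adjusted p = 2.34e-05), HEK293T (0.93) and neurons (1.51) and was not called in mESC (-0.11). DDX6, the P-body helicase, was depleted in HEK293T (-0.51 ± 0.06) and enriched in the other 3 cell types, by 0.92 in liver bud progenitors, 1.49 in the neurons and 0.71 in mESC. PATL1 was depleted in liver bud progenitors (-0.39 ± 0.08) and enriched in HEK293T (0.16), neurons (0.57) and mESC (0.44). Tnrc6c was depleted in mESC (-0.29 ± 0.09), a call lost with DESeq2 (-0.30, adjusted p = 0.0544) and without P-body replicate 1 (-0.16, adjusted p = 0.211) or cytoplasm replicate 1 (-0.20, adjusted p = 0.11), while TNRC6C was enriched in HEK293T (1.28) and neurons (0.49) and not called in liver bud progenitors (-0.07). ZFP36, with means of 3.775 normalized CPM in P-bodies and 6.616 in the cytoplasm, was depleted in liver bud progenitors (-0.80 ± 0.32, adjusted p = 0.0364) and called in no other cell type. That call was lost with DESeq2 (-0.82, adjusted p = 0.27), in the single fit (-0.83, adjusted p = 0.157) and without P-body replicate 1 (-0.42, adjusted p = 0.416), cytoplasm replicate 1 (-0.90, adjusted p = 0.0534) or cytoplasm replicate 2 (-0.73, adjusted p = 0.167). The percentages of all genes called, given above for each cell type, apply here too.

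Of 8 genes for other deadenylases, 2 were enriched and 3 depleted in HEK293T, 2 and 2 in liver bud progenitors and mESC, and 1 and 2 in neurons. PAN2, the catalytic subunit of the PAN2-PAN3 deadenylase, fell in all 4 cell types, with changes of -0.89 ± 0.16, -1.01 ± 0.14, -0.92 ± 0.18 and -0.28 ± 0.07 in HEK293T, liver bud progenitors, neurons and mESC. PAN3, its RNA-binding partner, rose in HEK293T (0.49 ± 0.07) and liver bud progenitors (0.47 ± 0.08) and was not called in neurons (0.19 ± 0.17) or mESC (0.19 ± 0.09, adjusted p = 0.0793). PARN, a poly(A)-specific ribonuclease, was called in none, at 0.03 ± 0.09, -0.08 ± 0.12, -0.18 ± 0.22 and 0.12 ± 0.11. ANGEL1 and ANGEL2, relatives of the CCR4-type nucleases, went opposite ways in each cell type, at -1.42 ± 0.14 and 0.70 ± 0.10 in HEK293T and -0.89 ± 0.28 and 1.47 ± 0.33 in neurons, the ANGEL1 values being -0.81 ± 0.15 in liver bud progenitors and -0.59 ± 0.17 in mESC and those of ANGEL2 0.45 ± 0.14 and 0.70 ± 0.10. With DESeq2 the ANGEL1 calls in neurons (adjusted p = 0.0878) and mESC (adjusted p = 0.0611) and the ANGEL2 call in liver bud progenitors (adjusted p = 0.148) were lost. The ANGEL1 call was also lost in neurons by library size alone, with filterByExpr and without either cytoplasm library (adjusted p from 0.0536 to 0.337), and in mESC without P-body replicate 2 (adjusted p = 0.0978) or cytoplasm replicate 1 (adjusted p = 0.13). ANGEL2 lost its liver bud call by library size alone, in the single fit and without P-body replicate 2 or cytoplasm replicate 2 (adjusted p from 0.0654 to 0.151), and its neuron call without cytoplasm replicate 1 (adjusted p = 0.0907). Noct rose in mESC (0.48 ± 0.15, adjusted p = 0.0126), a call lost with DESeq2 (0.48, adjusted p = 0.0872), by library size alone (0.08, adjusted p = 0.662), without P-body replicate 2 (0.39, adjusted p = 0.126) and without cytoplasm replicate 1 (0.45, adjusted p = 0.0512).

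Of the proteins that associate with the complex, CNOT4, a ubiquitin ligase, was enriched in all 4 cell types, by 1.20 ± 0.06, 1.03 ± 0.07, 1.00 ± 0.15 and 1.65 ± 0.04 in HEK293T, liver bud progenitors, neurons and mESC. TNKS1BP1 was depleted in all 4, with -1.27 ± 0.20 in liver bud progenitors, -1.03 ± 0.24 in the neurons and -0.82 ± 0.23 in mESC. The mESC call was lost with DESeq2 (-0.83, adjusted p = 0.0639) and without P-body replicate 1 (-0.56, adjusted p = 0.13), and the neuron call without cytoplasm replicate 1 (-0.85, adjusted p = 0.164). Of the poly(A)-binding proteins, which coat the tail that CCR4-NOT shortens, PABPC1 rose in HEK293T (0.24 ± 0.04), liver bud progenitors (1.08 ± 0.03, 9425 against 4473 normalized CPM) and mESC (0.87 ± 0.03), and fell in neurons (-0.53 ± 0.07, 1344 against 1946). PABPC1L fell in the 3 human cell types, by -0.74 ± 0.20, -1.94 ± 0.15 and -1.76 ± 0.41 in HEK293T, liver bud progenitors and neurons. PABPC4 fell in HEK293T (-0.39 ± 0.09). In the single fit of the 12 human libraries the HEK293T calls of PABPC1L (-0.61, adjusted p = 0.145) and PABPC4 (-0.26, adjusted p = 0.0761) were lost, and that of PABPC1L also with DESeq2 (-0.64, adjusted p = 0.0998) and without P-body replicate 2 (-0.50, adjusted p = 0.0983) or cytoplasm replicate 1 (-0.53, adjusted p = 0.0689). PABPC3, a near copy of PABPC1 whose reads may be shared with it, was enriched in liver bud progenitors (0.95 ± 0.15). List counts were 1 enriched and 2 depleted of 4 in HEK293T, 2 and 1 of 4 in liver bud progenitors, 2 depleted of 4 in neurons, and 1 enriched of 2 tested in mESC, the rest being uncalled.

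Across the 12 human libraries, the genes whose log2 CPM followed CNOT1 most closely, of 6920 with a mean of at least 20 CPM, were CEP128 and CEP152 (Pearson r = 0.991 each) and TRIM59 (0.990). Those closest to CNOT3 were SF1 (0.965), PHF8 (0.957) and ZNF574 (0.952). Among the members themselves, CNOT2 and CNOT10 had the highest correlation (0.898) and CNOT3 and CNOT7 the lowest (-0.725). The libraries share cell types and fractions, and the correlations are given as a description.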

How the data were processed

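The deposited tables hold read counts as whole numbers, by gene symbol, for human (hg38) and mouse (mm10). Per the study's methods, snapTotal-seq reads were run through nf-core and quantified with salmon, and Smart-seq reads were mapped with hisat2 and counted with featureCounts, both on refGene annotation. Which route made the polyA RNA columns was not given in the sources used here. Genes under 10 reads over all samples had been removed. Deposited tables of the authors' DESeq2 comparisons (fold changes and p-values) were not used.

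Groups and replicate numbers came from the labels, which do not say whether replicates were separate cultures, so p-values measure the spread between these libraries. Fractions were compared within each cell type over 4 libraries, cell types by an interaction over 8 libraries, and cytoplasm over 4, with edgeR 4.0.16 (TMM, quasi-likelihood, two-sided, R 4.3.3), leaving out genes with 0 counts in every library compared. SE was taken as the size of the log2 change over the square root of F, and 95% intervals as 1.96 SE. Scripts were tested on simulated data. DESeq2 1.42.0 and the alternatives in the closing section were also run. The floor of 3 counts covers counting error only, as no molecular identifiers were counted. Transcripts came from GENCODE v44 and M21 and were matched by symbol for all 10 members of each species. The Ensembl canonical transcript was taken in human, and the GENCODE basic transcript with the longest coding sequence in mouse.

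The members and lists were chosen with earlier results of these data known. All members were named. In each list and cell type up to 2 called genes with the largest rise and 2 with the largest fall and a mean of at least 5 CPM were named, and PAN2, PAN3 and PARN always. Values of listed genes outside that rule (the remaining cell types of a named gene) follow the same fits. Correlations used log2 CPM with a prior count of 2.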

Additional observations from a re-analysis of the deposited data

Results flagged for a closer look

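The differences between human cell types in P-body over cytoplasm change that passed the test of the difference itself are set out here as values, on the log2 scale. Between neurons and liver bud progenitors these were CNOT1 (0.63), CNOT3 (1.12), CNOT6L (1.03), CNOT7 (-0.89) and CNOT9 (-0.65). Between neurons and HEK293T they were CNOT1 (0.40), CNOT6 (0.45), CNOT6L (0.86) and CNOT8 (-0.95). Between HEK293T and liver bud progenitors they were CNOT1 (0.33), CNOT3 (1.11), CNOT7 (-0.87) and CNOT8 (0.69). CNOT1 is the member that differed in all 3 comparisons. Groups of 2 libraries were too small for a check for outlying samples.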

How the results depend on the processing

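With 2 libraries a group, every value rests on 4 or 8 libraries. Over 550 recomputed member changes under other tools, scalings, filters and fits, 467 kept direction and side of the threshold, and over 440 with a library left out 369 did. For genes of the lists this held in 366 of 385 and in 210 of 228.

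The labels do not say whether P-body and cytoplasm libraries of the same number came from the same lysate, and the main fits did not pair them. Deviations of same-numbered libraries correlated at -0.091 in HEK293T, 0.063 in liver bud progenitors, 0.13 in the neurons and -0.037 in mESC. With 2 libraries a group these values cannot decide whether the libraries were paired. With a replicate block 5, 6, 5 and 6 members were enriched in these and 4, 1, 3 and 0 depleted, and no count of members called, in any comparison, moved by more than 1.5 times.

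Depleted members numbered 2 with DESeq2, 2 with RLE size factors and 1 with a single fit of the 12 human libraries in HEK293T, 2 by library size only in liver bud progenitors, and 0 with DESeq2 (2 at an unadjusted p under 0.05) and 1 with RLE, library size only or filterByExpr in neurons. In mESC they were 5 by library size only and 3 with filterByExpr. Members less enriched in neurons than in liver bud progenitors were 1 with DESeq2, RLE, library size only or filterByExpr and 4 in the single fit, members less enriched in neurons than in HEK293T 2 without ribosomal RNA rows, and members less enriched in HEK293T than in liver bud progenitors 4 by library size only, 5 with filterByExpr and 2 without ribosomal RNA rows. With a library left out, depleted members ranged from 2 to 3 in HEK293T, 0 to 2 in neurons and 0 to 1 in mESC. Members less enriched in neurons than in liver bud progenitors ranged from 1 to 5, those more and less enriched in neurons than in HEK293T from 1 to 3 and 1 to 2, and those less enriched in HEK293T than in liver bud progenitors from 1 to 2.

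Signs that turned belonged to changes that had not been called, except those of CNOT1 in liver bud progenitors and mESC. Some were not close to 0, such as CNOT9 for neurons against HEK293T (-0.35 before the turn). By library size only, CNOT1 (-0.030) and CNOT6L (-0.084) turned in liver bud progenitors, Cnot1 (-0.087), Pan3 (-0.21) and Parn (-0.28) in mESC and PARN (-0.10) in HEK293T. After the turn Cnot1, Pan3 and Parn were called as depleted in mESC (edgeR adjusted p = 0.0368, 0.0411 and 0.0312). CNOT7 in neurons turned without ribosomal RNA rows (-0.011) and in the single fit (-0.11). For neurons against liver bud progenitors, CNOT2 (0.23), CNOT8 (0.0038) and CNOT10 (0.26) turned by library size only and CNOT2 (0.013) and CNOT10 (0.046) with filterByExpr. For neurons against HEK293T, CNOT2 turned with DESeq2 (-0.014), RLE (-0.012), no ribosomal RNA rows (-0.084) and the single fit (-0.036), CNOT9 (0.082) and CNOT11 (0.081) by library size only, CNOT3 without ribosomal RNA rows (-0.045) and in the single fit (-0.00020), and CNOT7 in the same fits (-0.072 and -0.026). In the cytoplasm of neurons against liver bud progenitors, CNOT10 turned with DESeq2 (-0.037), RLE (-0.035), library size only (-0.38), filterByExpr (-0.029) and the single fit (-0.047), and CNOT6L by library size only (-0.24). With a library left out, ranges spanning 0 were -0.0051 to 0.18 for CNOT6L and -0.041 to 0.44 for CNOT9 in liver bud progenitors, -0.50 to 0.041 for CNOT3 and -0.13 to 0.12 for CNOT7 in neurons, and -0.19 to 0.15 for Cnot11 in mESC. They were -0.084 to 0.24 for CNOT6 and -0.35 to 0.0090 for CNOT10 in neurons against liver bud progenitors, -0.22 to 0.29 for CNOT2, -0.19 to 0.34 for CNOT3 and -0.042 to 0.19 for CNOT7 in neurons against HEK293T, -0.13 to 0.039 for CNOT2 and -0.43 to 0.036 for CNOT9 in HEK293T against liver bud progenitors, and -0.10 to 0.11 for CNOT10 and -0.13 to 0.36 for CNOT6L in the cytoplasm. The cause of these changes was not tested.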
